A study of Homo sapiens with 2 samples.

Results

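The FOXO genes and their direct targets described here are 10 human genes, taken by symbol from the 60623 genes of the count files. FOXO1, FOXO3 and FOXO4 encode the transcription factors, and PIK3IP1, BCL6, CITED2, FBXO32, KLHL24, CCNG2 and GADD45A are genes that FOXO factors are known to activate. All 10 were found, and all 10 had a summed count of at least 20, the minimum at which a gene was treated as measured. RNA came from 2 cultures of OCI-AML3 cells, an established line from acute myeloid leukaemia with mutant NPM1, whose genotype the labels give as WT and whose tissue they give as bone marrow. The control culture received DMSO, the solvent, and the treated culture 50 nM omipalisib (GSK2126458), an inhibitor of the class I phosphoinositide 3-kinases (PI3K) and of mTOR, both for 24 h in MEM alpha medium with serum. There was 1 library per treatment, so differences are reported without a p-value and with 95% intervals for the error of counting alone.

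FOXO factors are forkhead transcription factors that restrain growth. When growth factors activate PI3K, the kinase AKT phosphorylates FOXO proteins, 14-3-3 proteins bind them, and they are held in the cytoplasm; when the pathway is inhibited they return to the nucleus and switch on genes for cell cycle arrest, protein breakdown, stress resistance and insulin signalling. In blood-forming cells FOXO factors are known for keeping stem cells quiescent. The counts measure transcripts, not the phosphorylation or the location of FOXO proteins.

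The libraries held 26367832 counted fragments (DMSO) and 22599164 (omipalisib), and 15660 genes were measured. Of 10 myeloid marker genes, 9 reached 1 CPM (a count per 1000000 scaled counts) in DMSO and 10 in omipalisib, with summed levels of 1275 and 1404 CPM. Of 9 erythroid and megakaryocyte markers 1 and 2 reached 1 CPM in DMSO and omipalisib, of 10 lymphoid markers 2 and 2, and of 10 stromal and epithelial markers 1 and 1. Their summed levels were 10.1 and 12.5, 10.3 and 8.85, and 98.1 and 70.0 CPM, the last mostly COL1A2 with 2507 and 1564 counts. HBB, HBG1, KLF1, GATA1, GP9 and PF4, CD3D, CD3E, CD2, LCK and MS4A1, and COL3A1 had no count in either library. Of the 10 myeloid markers 6 were higher in omipalisib, 1 was lower and 3 had counting intervals that included 0. Of all measured genes, 26.5% were higher and 28.1% lower by the same rule. The markers had a median summed count of 3403.5, against 967 over all measured genes, so smaller differences were called among them. The log2 ratio of omipalisib over DMSO was highest for CD14 at 2.23 (1.80 to 2.70) and CSF3R at 1.10 (1.01 to 1.20), the abundant LYZ was lower at −0.38 (−0.43 to −0.33), and MPO had −0.57 (−1.22 to 0.04). Their part in the differences below was not tested. In such bulk RNA, fewer cells of a type and less RNA per cell cannot be told apart.

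FOXO factors bind DNA at a core of the form GTAAACA or ATAAACA, and the sequences below are shown to let the site be seen in the genes measured here. Both letter strings were searched on both strands of RefSeq promoter windows (GRCh38.p14, from 250 bases before to 50 after a transcript start). Windows existed for 8 of the 10 genes, 15 windows in all, and 3 genes held a match: FOXO3, FOXO4 and PIK3IP1. The windows of FOXO1, BCL6, CITED2, KLHL24 and CCNG2 held none. FBXO32, which has the largest ratio of the set, and GADD45A had no window and were not searched. Of all 35116 windows, 3.42% held GTAAACA, 4.24% ATAAACA and 7.43% either. Of the 27305 genes, 8.98% held either in any window. Genes with more windows, such as FOXO3 with 4, had more room for a match. GTAAACAA, the same core with 1 more base and so a subset of the GTAAACA matches, was in 0.954% of windows. A match is a run of letters, not a shown binding site. The absence of a match covers only these strings in these windows, and other sequence of the genes was not searched. The matches in the 3 genes are printed 5′ to 3′ on the gene's own strand with 10 bases on each side and the core in capitals; TGTTTAC is GTAAACA read on the other strand.
FOXO3: cgagcgaaacATAAACAaacgcacgca
FOXO4: ccggcgagtgGTAAACAgagacgtcag
PIK3IP1: aaagagaggcTGTTTACcagaacagca
The FOXO3 match lies at chr6:108560673-108560699 (plus strand), 234 bases before 1 of the 4 annotated starts. The FOXO4 match lies at chrX:71095864-71095890 (plus strand) and begins at base 24 of the transcript, and the PIK3IP1 match lies at chr22:31292456-31292482 (minus strand) and begins at base 17 after the inner of its 2 starts.

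Of 45 other FOXO targets, 38 had windows and 7 held a match, against the same 8.98% of all genes. The 4 with GTAAACA are printed. TXNIP, BTG1 and SELENOP hold the longer GTAAACAA and were higher in the omipalisib library. BCL2L11 holds GTAAACA without the added base, and the interval of its log2 ratio included 0, whereas FOXO4 and PIK3IP1, which also hold it without the added base, were higher at 0.80 and 0.70. Of the 3 with ATAAACA, RBL2 (0.28) and IL7R (0.41) were higher and TRIM63 was not measured. With or without a match, 22 of the 34 measured other targets were higher, and a link between match and ratio was not tested.
TXNIP: cgggctcctgGTAAACAaggaccgggc
BTG1: cgggtttattTGTTTACaagcggatta
SELENOP: gaggggtgagGTAAACAacaggactat
BCL2L11: agttactccgGTAAACAcgccagggac
These lie at chr1:145996687-145996713 (minus strand), chr12:92146039-92146065 (minus), chr5:42811921-42811947 (minus) and chr2:111120681-111120707 (plus), at 124, 209, 45 and 223 bases before their starts. KLHL24 and CCNG2, whose messages were higher in the omipalisib library, held neither string in their windows, and bases outside the windows were not searched. Their bases before the annotated gene start are shown without capitals, 237 bases of KLHL24 (chr3:183635373-183635609, plus strand) with a GC content of 62.4% and 250 bases of CCNG2 (chr4:77156957-77157206, plus strand) with 65.6%.
KLHL24: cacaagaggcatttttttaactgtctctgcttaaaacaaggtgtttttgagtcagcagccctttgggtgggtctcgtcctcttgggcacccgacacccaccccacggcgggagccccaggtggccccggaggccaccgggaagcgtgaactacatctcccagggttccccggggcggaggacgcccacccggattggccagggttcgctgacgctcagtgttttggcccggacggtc
CCNG2: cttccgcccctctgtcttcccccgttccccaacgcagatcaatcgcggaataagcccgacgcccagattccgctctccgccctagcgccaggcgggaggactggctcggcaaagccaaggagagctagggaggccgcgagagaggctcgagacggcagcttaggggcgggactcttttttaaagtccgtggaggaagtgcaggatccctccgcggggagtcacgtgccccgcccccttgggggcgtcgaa

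Across the 10 genes, messages for the factors FOXO3 and FOXO4 and for 6 of the 7 targets were higher in the omipalisib library, GADD45A was lower, and FOXO1 had an interval that included 0. A gene is called higher or lower here where the counting interval of its log2 ratio excluded 0. By that rule 8 of the 10 were higher, against 26.5% of the 15660 measured genes, and 1 was lower, against 28.1%. FBXO32, KLHL24 and BCL6 were at least 2-fold higher, 3 of 10 against 4.02% of measured genes, and none was at least 2-fold lower, against 1.27%. The median log2 ratio of the 10 was 0.75, with a range of −0.33 to 2.09, and the median over all measured genes was 0.01. Ranked among all measured genes by log2 ratio, 8 of the 10 lay above percentile 75, 6 above percentile 90 and 3 above percentile 95. The 10 genes were chosen with earlier results of these data known. These shares and ranks therefore describe the set and do not test it. The plot of log2 ratio against mean CPM shows where each lies among the other genes.

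**Figure D1:**
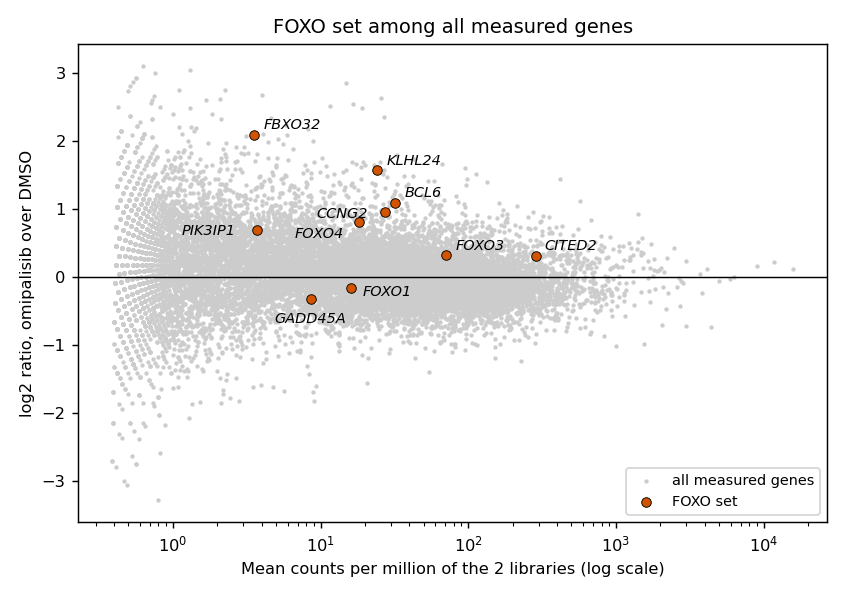
Each grey point is 1 of the 15660 measured genes, by its mean CPM of the 2 libraries (log axis) and its log2 ratio of omipalisib over DMSO; orange points are the 10 FOXO genes and targets. FBXO32 and KLHL24 lie near the upper edge of the cloud, at 2.09 and 1.56, and FOXO1 and GADD45A lie below 0.

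The levels of the 10 genes, given as TPM (counts divided by exonic length, summed over all annotated exons, and scaled to the same total in each library), spanned 0.619 to 339 TPM in DMSO. CITED2 was highest in both libraries, with 339 and 435 TPM, followed by FOXO3 with 27.9 and 36.0. In DMSO the order went on with GADD45A (16.9), FOXO4 (11.9), BCL6 (11.7), FOXO1 (9.11), CCNG2 (8.57), KLHL24 (4.81), PIK3IP1 (2.54) and FBXO32 (0.619). Of neighbours in that order, FOXO4 and BCL6, and FOXO1 and CCNG2, had overlapping 95% Poisson intervals of their counts, and the other neighbours did not. In omipalisib the order after FOXO3 was BCL6 (25.9), FOXO4 (21.6), CCNG2 (17.1), KLHL24 (14.7), GADD45A (13.9), FOXO1 (8.38), PIK3IP1 (4.27) and FBXO32 (2.76), with overlapping intervals for KLHL24 and GADD45A only. GADD45A thus had rank 3 in DMSO and 7 in omipalisib, while BCL6 had ranks 5 and 3. TPM serves to compare genes within a library, and the log2 ratios below come from counts scaled between the libraries.

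**Figure D2:**
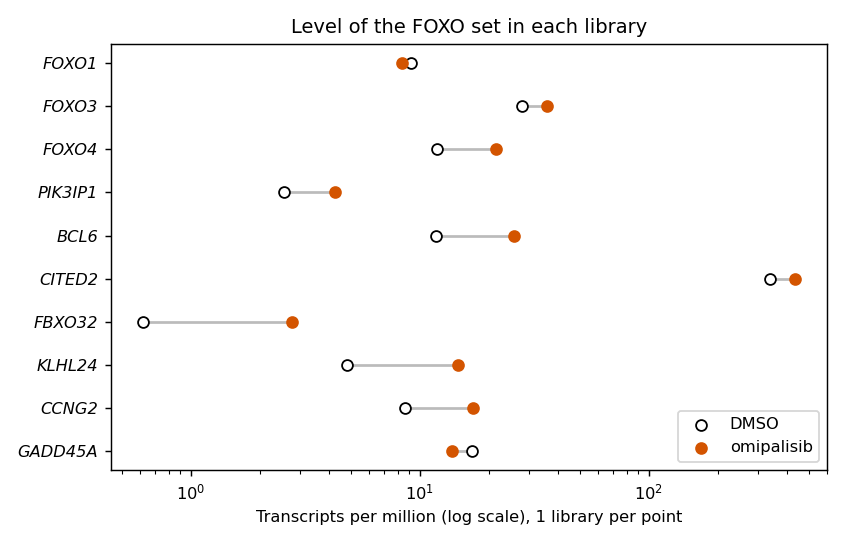
Level of each of the 10 genes in TPM on a log axis, with 1 point per library (open, DMSO; orange, omipalisib) and no error, since each group has 1 library. The gap is widest for FBXO32 (0.619 to 2.76), and FOXO1 and GADD45A are the genes whose omipalisib point lies to the left.

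The 3 factor genes differed from one another. FOXO3 (ENSG00000118689, chromosome 6, 108559835 to 108684774, plus strand, GRCh38), the most abundant factor message here, had 1638 counts in DMSO and 1804 in omipalisib, 63.1 and 78.6 CPM after scaling. Its log2 ratio was 0.32 (0.22 to 0.42), at percentile 76.1 of all measured genes. FOXO4 (ENSG00000184481, chromosome X, 71095851 to 71103532, plus strand) had 346 and 534 counts, 13.3 and 23.3 CPM, and a log2 ratio of 0.80, a fold of 1.75 (1.52 to 2.01), at percentile 92.6. FOXO4 was the factor gene with the largest ratio, and its interval did not overlap those of the other factors. FOXO1 (ENSG00000150907, chromosome 13, 40469953 to 40666641, minus strand) had 444 and 349 counts, 17.1 and 15.2 CPM, and a log2 ratio of −0.17 (−0.37 to 0.04). FOXO1 was thus not distinguishable between the libraries at this depth.

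Summed over the factors, FOXO messages stood at 49.0 TPM in DMSO and 66.0 TPM in omipalisib. TPM was not scaled between the libraries as the log2 ratios were, so these sums do not measure the difference between them. FOXO3 made up 57.0% of the sum in DMSO and 54.6% in omipalisib, FOXO4 24.4% and 32.7%, and FOXO1 18.6% and 12.7%. FOXO6, the remaining family member, known mainly from brain, had 0 and 2 counts, under the floor of 3 counts (0.116 CPM in DMSO and 0.131 CPM in omipalisib). FOXO3 is uncertain because the FOXO3B gene on chromosome 17 is a near copy, with 86 and 103 counts of its own, and fragments that align to both are not counted by default. FOXO1 shares 269 exonic bases, 4.22% of its length, with LINC00598 on the same strand, where fragments are assigned to neither gene. None of the other 9 genes shares exonic bases on its strand with another annotated gene.

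Targets that act on signalling and transcription were all higher. PIK3IP1 (ENSG00000100100, chromosome 22, 31281594 to 31292534, minus strand) encodes a membrane protein that binds and inhibits the PI3K catalytic subunit. It had 74 and 106 counts, 2.85 and 4.62 CPM, and a log2 ratio of 0.70 (0.26 to 1.15), with a wide interval because of the low count. BCL6 (ENSG00000113916, chromosome 3, 187721377 to 187745725, minus strand) encodes a zinc finger repressor known from germinal centre B cells. It had 533 and 1003 counts, 20.5 and 43.7 CPM, and a log2 ratio of 1.09 (0.94 to 1.25), a fold of 2.13 (1.92 to 2.37). CITED2 (ENSG00000164442, chromosome 6, 139371807 to 139374648, minus strand) encodes a regulator that competes with HIF1A for the coactivators CBP and p300. It had 6635 and 7272 counts, 255 and 317 CPM, and a log2 ratio of 0.31 (0.26 to 0.36), at percentile 75.7. The most abundant of the 10 thus had the smallest difference among the higher targets and the narrowest interval.

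The targets for protein turnover had the largest ratios of the set. FBXO32 (ENSG00000156804, chromosome 8, 123497889 to 123541206, minus strand) encodes atrogin-1, the F-box subunit of a ubiquitin ligase that FOXO factors induce in wasting muscle. It had 35 counts in DMSO and 133 in omipalisib, 1.35 and 5.80 CPM, a 4.26-fold difference (2.95 to 6.44) at percentile 99.7. It was the least abundant of the 10 in both libraries. KLHL24 (ENSG00000114796, chromosome 3, 183635610 to 183684519, plus strand) encodes a substrate adaptor of a cullin-3 ubiquitin ligase. It had 318 and 831 counts, 12.2 and 36.2 CPM, a 2.96-fold difference (2.60 to 3.38) at percentile 98.8. Both intervals lay wholly above 2-fold, which held for no other gene of the 10.

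The targets tied to growth arrest went in opposite directions. CCNG2 (ENSG00000138764, chromosome 4, 77157207 to 77433388, plus strand) encodes cyclin G2, an atypical cyclin that rises in resting cells and slows the cycle. It had 486 and 827 counts, 18.7 and 36.1 CPM, and a log2 ratio of 0.95 (0.78 to 1.11), a fold of 1.93 (1.72 to 2.16), at percentile 94.9. The ratio was just under 2-fold, and its interval spanned that value; with upper-quartile scaling it passed 2-fold. GADD45A (ENSG00000116717, chromosome 1, 67685201 to 67688334, plus strand) encodes a small protein induced by DNA damage that slows entry into mitosis and is a target of p53 as well as of FOXO. It had 248 and 174 counts, 9.55 and 7.59 CPM, and a log2 ratio of −0.33 (−0.62 to −0.05), at percentile 17.5. It was the only member called lower, and with upper-quartile scaling its ratio was −0.27 with an interval that included 0, so no member was then lower.

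**Figure D3:**
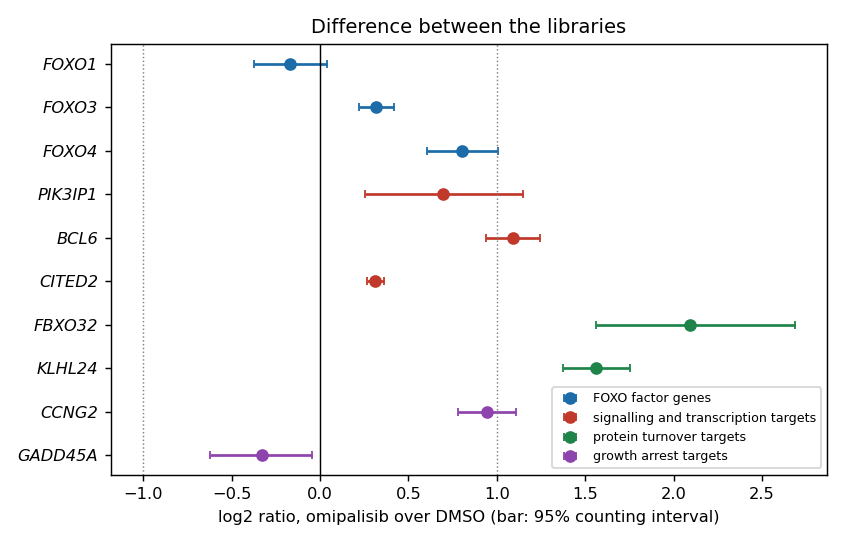
Log2 ratio of omipalisib over DMSO for each of the 10 genes, coloured by role; bars are 95% counting intervals between 1 library per group, and dotted lines mark a 2-fold difference either way. The intervals of FBXO32 and KLHL24 lie above the right dotted line, and those of BCL6, CCNG2, FOXO4 and PIK3IP1 cross it.

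Other FOXO targets, listed by role, were mostly higher but by less. Of 45 such genes 34 were measured, of which 22 were higher, 6 were lower and 6 had intervals that included 0, against 26.5% higher and 28.1% lower of all measured genes. The 34 had a median summed count of 2399, against 967 over all measured genes, so smaller differences were called among them. The median log2 ratio of the 34 was 0.33. These lists too were chosen with earlier results of these data known, so the shares are descriptive. BMF and SELENOP were at least 2-fold higher. The 11 that were not measured were FASLG, ERBB3, PCK1, G6PC1, IGFBP1, PPARGC1A, TRIM63, S1PR1, CCR7, RAG1 and RAG2. Several of these are liver, muscle or lymphocyte genes, among them TRIM63, the other muscle ubiquitin ligase besides FBXO32, with 3 and 6 counts.

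Of 5 genes of cell cycle arrest and DNA damage, 3 were higher and 1 lower, against 26.5% and 28.1% of all measured genes. Their median summed count was 4715, against 967 over all measured genes, so smaller differences were called among them. The antiproliferative BTG1 had 1971 and 2652 counts and a ratio (log2) of 0.61 (0.52 to 0.69), RBL2, the pocket protein p130, had 0.28 (0.20 to 0.35) and CDKN1B, the CDK inhibitor p27, 0.24 (0.16 to 0.31). CDKN1A, p21, was lower at −0.24 (−0.32 to −0.15), and GADD45B, the paralogue of GADD45A, had −0.18 (−0.42 to 0.06). BTG1 shares 10.5% of its exonic bases with LINC01619 on its strand. Of 7 measured apoptosis genes, BMF (1.73), BBC3 (0.58) and BNIP3L (0.47) were higher, and the mitochondrial BH3-like gene BNIP3 was lower at −0.46 (−0.61 to −0.31). The BH3-only gene BCL2L11, which encodes BIM, had 2854 and 2484 counts and a ratio (log2) of −0.02 (−0.10 to 0.06). TNFSF10, the ligand TRAIL, and TRADD also had intervals that included 0. The 7 apoptosis genes had a median summed count of 1861, again above that of all measured genes.

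All 5 measured genes of insulin signalling and metabolism were higher, against 26.5% of all measured genes. Their median summed count was 1812, against 967 over all measured genes, so smaller differences were called among them. PDK4, the kinase that shuts off pyruvate dehydrogenase, had 217 and 380 counts and a ratio (log2) of 0.99 (0.74 to 1.24). TXNIP, which limits glucose uptake, had 0.83 (0.80 to 0.87), and the receptor and adaptor genes IGF1R, INSR and IRS2 had 0.84, 0.54 and 0.53. Of 8 measured genes of autophagy and protein turnover, 6 were higher and none lower, with a median of 0.35. Over all measured genes 26.5% were higher and 28.1% lower, and the 8 too had a larger median summed count, 1691.5. GABARAPL1, an ATG8 family protein of the autophagosome, had 338 and 547 counts and a ratio (log2) of 0.87 (0.68 to 1.07), and PINK1, the kinase that marks damaged mitochondria, had 0.71 (0.53 to 0.90). ATG12 and GLUL had intervals that included 0.

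Among the 6 lists of other targets, that of antioxidant genes was the one with more genes lower than higher, 4 against 2 of 6, with a median of −0.29. Over all measured genes 28.1% were lower and 26.5% higher. The 6 genes had a median summed count of 4199.5, against 967 over all measured genes, so smaller differences were called among them. Catalase, CAT, had a log2 ratio of −0.57 (−0.64 to −0.50), the sestrin SESN3 −0.50 (−0.57 to −0.42), the mitochondrial peroxiredoxin PRDX3 −0.36 and the manganese superoxide dismutase SOD2 −0.22 (−0.34 to −0.11). GENCODE release 29 gives the name SOD2 to 2 overlapping genes. The value here is that of ENSG00000112096, with 1388 and 1050 counts, while ENSG00000285441 had 0 and 1 counts and shares 845 exonic bases with it, where fragments are assigned to neither, so the count is uncertain. SESN1 had 0.21 (0.09 to 0.33), and SELENOP, the secreted selenoprotein, had 40 and 152 counts and a ratio (log2) of 2.09 (1.59 to 2.65). The 3 measured genes of lymphocyte trafficking and quiescence were higher, with IL7R at 0.41, KLF6 at 0.37 and KLF2 at 0.44 (0.09 to 0.80). Their median summed count, 3052, was likewise above that of all measured genes.

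**Figure D4:**
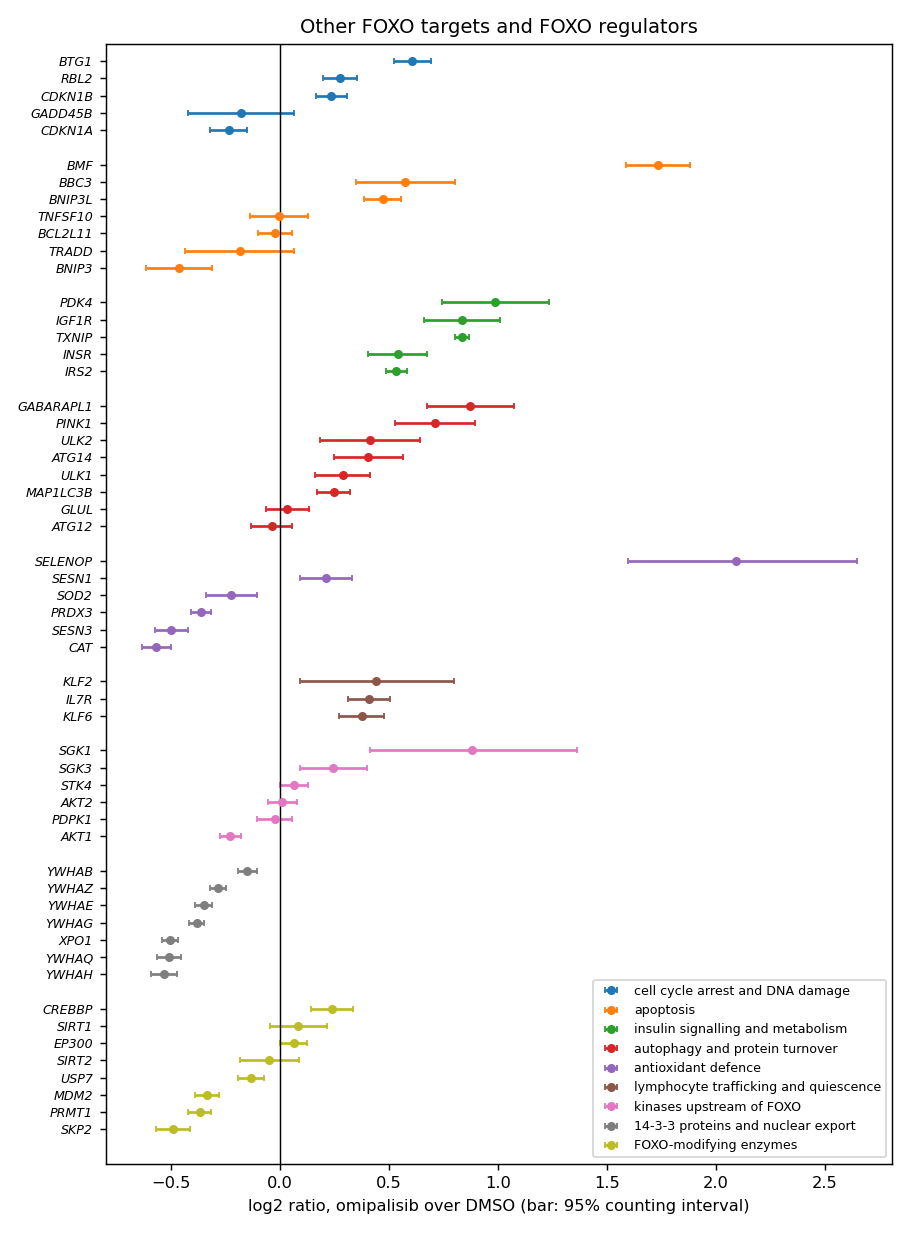
Log2 ratio of omipalisib over DMSO, with 95% counting intervals, for the measured genes of the 6 lists of other FOXO targets and the 3 lists of FOXO regulators, sorted within each list. All 5 insulin signalling and metabolism genes lie to the right of 0, and all 7 genes for 14-3-3 proteins and nuclear export lie to the left.

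Genes whose products control FOXO proteins were lower more often than higher: 12 of 21 measured were lower and 4 higher, against 28.1% and 26.5% of all measured genes, with a median log2 ratio of −0.15. The 21 had a median summed count of 8612, against 967 over all measured genes, so smaller differences were called among them. Of 12260 measured protein-coding genes, 4137 were lower and 3303 higher. The 3 lists of regulators differed. Of 6 upstream kinases 1 was lower and 3 were higher, and of 8 modifying enzymes 4 were lower and 1 was higher. All 7 measured genes for 14-3-3 proteins and nuclear export were lower, between −0.53 and −0.15, with a median of −0.38. YWHAH, the 14-3-3 eta gene, had 5656 and 3455 counts and a ratio (log2) of −0.53 (−0.59 to −0.47). These are abundant messages, with a median of 476 CPM in DMSO against 19.4 over all measured genes, so their intervals are narrow and a small difference is called. Among the upstream kinases AKT1 was lower at −0.23 (−0.28 to −0.18) and AKT2 had 0.01 (−0.06 to 0.08). With the trend of ratio with gene length removed, AKT2 was lower at −0.11 (−0.18 to −0.04), as was PDPK1 at −0.095. The serum and glucocorticoid kinase SGK1, which also phosphorylates FOXO3, had 62 and 101 counts and a ratio (log2) of 0.88 (0.41 to 1.36). SGK3 was higher at 0.25 (0.09 to 0.40), and PDPK1 had an interval that included 0. STK4 was higher at 0.07 with a lower bound of 0.0023, and its interval included 0 with DESeq2 size factors, with no minimum count or with the length trend removed. Of 8 enzymes that modify FOXO proteins, the acetyltransferase CREBBP was higher at 0.24 (0.14 to 0.33). The ubiquitin ligase subunit SKP2, which targets FOXO1 for degradation, was lower at −0.49 (−0.57 to −0.41), as were PRMT1 (−0.37), MDM2 (−0.34) and USP7 (−0.13). YWHAH, PRMT1 and MDM2 share 4.39%, 7.63% and 3.26% of their exonic bases with another annotated gene on their strand, and several 14-3-3 genes have processed pseudogenes, so these counts are uncertain.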

How the data were processed

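RNA of 1 DMSO and 1 omipalisib culture was sequenced from strand-specific libraries, per the labels' protocols. The authors deposited raw counts of fragments per gene, and per the file headers these came from featureCounts 2.0.1 run on exons per gene, in reverse-strand mode (2), with only pairs whose ends both aligned. The submitters' processing notes name hg19 and GRCh37, and the aligner is not given in the sources used here. However, 58468 of the 58516 file genes found in GENCODE release 29 overlap their GRCh38 positions, so coordinates are GRCh38.

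Libraries were scaled by TMM (edgeR 4.0.16, R 4.3.3) over genes whose counts in both libraries sum to 20 or more, and CPM uses the scaled totals. For log2 ratios 0.5 was added to both counts. The 95% interval follows Clopper and Pearson's exact limits for the fraction of a gene's fragments that lay in the omipalisib library, and treats fragments as independent. With 1 library per group no model was fitted. TPM was computed from counts and exonic lengths, with exact Poisson intervals.

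The 10 genes, the lists and the rules were chosen with earlier results of these data known. From each list of other targets or regulators, the text names the 2 higher genes and the 1 lower gene with intervals farthest from 0, and a preset group of genes. GADD45B, BBC3, TNFSF10, TRADD, IGF1R, ATG12, GLUL, PRDX3, STK4, PDPK1, PRMT1, MDM2, USP7, CD14, CSF3R, LYZ, MPO and COL1A2 were named after their values were seen, as were promoter matches and genes that were not measured. Some genes of the planned lists are not reported here, and no count or figure includes them as list members. The planned search of FOXO protein sequences was not made. As 8 alternatives, the libraries were scaled by totals, DESeq2 1.42.0 size factors or upper quartile, and the other settings were no minimum count or 100, 1 added to each count, the DMSO library thinned to the other's depth, and removal of a lowess trend with length.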

Additional observations from a re-analysis of the deposited data

How the results depend on the processing

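Under the 8 alternatives, 86 of 88 recomputed counts and medians of the FOXO set, the other targets and the regulators stayed within their margin (1.5 times for a count, the median counting interval for a median). Part of this was fixed by the method. Adding 1 to each count leaves the counting intervals as they were, so higher and lower calls could not change there. Scaling by totals, size factors or upper quartile shifts all ratios by the same small amount. With upper-quartile scaling the number of members called lower was 0 in place of 1, because the interval of GADD45A then included 0, and 4 members in place of 3 were at least 2-fold higher. The median log2 ratio of the 10 genes lay between 0.73 and 0.81, and that of the other targets between 0.31 and 0.39. The median of the regulators was −0.092 with upper-quartile scaling, in place of −0.15. Ratios were recomputed for 78 genes: the 10, the measured other targets and regulators, the myeloid markers, CCNG1, CITED4 and FBXO25. Of these 622 values 592 stayed inside their counting interval and 30 moved outside it. None of the 63 genes called higher or lower changed sign, but GADD45A, STK4 and CCNG1 lost the call under at least 1 alternative. AKT2, PDPK1, EP300, SIRT1 and ITGAM, whose intervals included 0, were called under at least 1. The alternatives for the regulator counts and for genes outside the naming rule were chosen after seeing the data. The median of all measured genes moved by less than 0.1 under each scaling. No paired analysis was possible because each group has 1 library. Depth limits FBXO32 and PIK3IP1 most, with 35 and 74 counts in DMSO, and variation between cultures was not measured.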

Other observations

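Close relatives of the targets, looked up by name after the data were seen, had values of their own. CCNG1, the other G-type cyclin, had 3438 and 2829 counts and a ratio (log2) of −0.10 (−0.17 to −0.03), where CCNG2 had 0.95. With total-count or upper-quartile scaling the interval of CCNG1 included 0. CITED4, a relative of CITED2, had 189 and 239 counts and a ratio (log2) of 0.52 (0.24 to 0.80). FBXO25, the F-box gene most like FBXO32, had 389 and 472 counts and a ratio (log2) of 0.46 (0.26 to 0.66), where FBXO32 had 2.09. BCL6B, CITED1 and GADD45G had no count in either library, but CITED1 shares 679 exonic bases with ENSG00000285547 on its strand, where fragments are assigned to neither gene.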
